A study of Mus musculus with 8 samples.

Results

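A set of 10 transcription factors that build and maintain the megakaryocyte (MK) lineage was followed in murine MKs cultured alone or with mesenchymal stromal cells (MSCs). They were Gata1, Gata2, Fli1, Runx1, Nfe2, Tal1, Gfi1b, Zfpm1, Mecom and Meis1, and were chosen by name. All 10 of 10 were present among the 13387 genes with deposited counts, and all 10 were among the 11722 genes that had enough counts to be tested. Fli1, Gata2, Tal1 and Nfe2 fell in cocultures, by between 2.81-fold and 6.61-fold, and none of the 10 passed the criteria for a rise. The largest fall, that of Nfe2, was 5.05-fold in mean CPM without replicate 3 of the cocultures. Nfe2 passed the criteria in 14 of 20 alternative analyses. Gata1, Runx1, Mecom and Meis1 had lower mean levels in cocultures without passing the criteria. Gfi1b and Zfpm1 lay inside the range of MKs cultured alone in 3 of the 4 cocultures. Neutrophil markers summed far above MK markers in MKs cultured alone and were lower in cocultures. The part of other cells in the levels of the factors was not tested.

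Bulk RNA-Seq libraries were made from wild-type C57BL/6 bone marrow MKs, the large polyploid marrow cells that release platelets. MKs had been enriched from marrow with beads against CD41, a surface integrin of the lineage, and were kept for 18 hours in serum-free medium with thrombopoietin, the main growth factor of MKs. In the control group (4 libraries) MKs were cultured alone. The coculture group (4 libraries) held MKs cocultured with wild-type marrow MSCs that had been sorted as CD45- Ter119- CD31- CD51+ CD140a+. The labels name no mutation or drug in either group. The labels describe the sequenced cells as MKs taken from the cultures and freed of platelets, while the methods of the study describe platelets pooled from several wells, and the values below are those of the deposited libraries. The labels do not say whether libraries came from separate cultures or animals. The legend of the study counts mice in each group, for platelets, without saying which library came from which animal, so p values measure the spread between these libraries.

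These factors act as a network. GATA1 and GATA2 bind the same DNA letters and use the cofactor FOG-1, the product of Zfpm1, and GATA1 replaces GATA2 at many sites as progenitors mature into MKs and red cells. FLI1 and RUNX1 bind beside GATA1 at platelet genes, TAL1 joins GATA1 through the bridging proteins LMO2 and LDB1, GFI1B represses genes with the LSD1 complex, and NFE2 drives the last steps in which MKs extend proplatelets. Mecom and Meis1 are best known from stem and progenitor cells and are kept on in young MKs.

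Libraries held between 4939874 and 12523616 counts. Levels are given as CPM, the counts of a gene divided by the library total after TMM scaling in edgeR and put on a common scale. A value of 0 allows a level up to that of 3 counts, which ran from 0.284 to 0.662 CPM over the libraries, for counting error only. Replicate 3 of the cocultures stood apart across all genes. Counts fell on 10735 genes in this library and on 12406 to 13193 genes in the other 7. Of genes with 10 counts or more in all of the other 7 libraries, 1012 had none in this one, where no other library lacked more than 4 such genes. Its Spearman correlations across genes with the other cocultures ran from 0.700 to 0.734, against 0.971 to 0.978 among those 3. The values of the factors, their ratios and the other genes and lists are therefore given with and without that library.

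**Figure D1:**
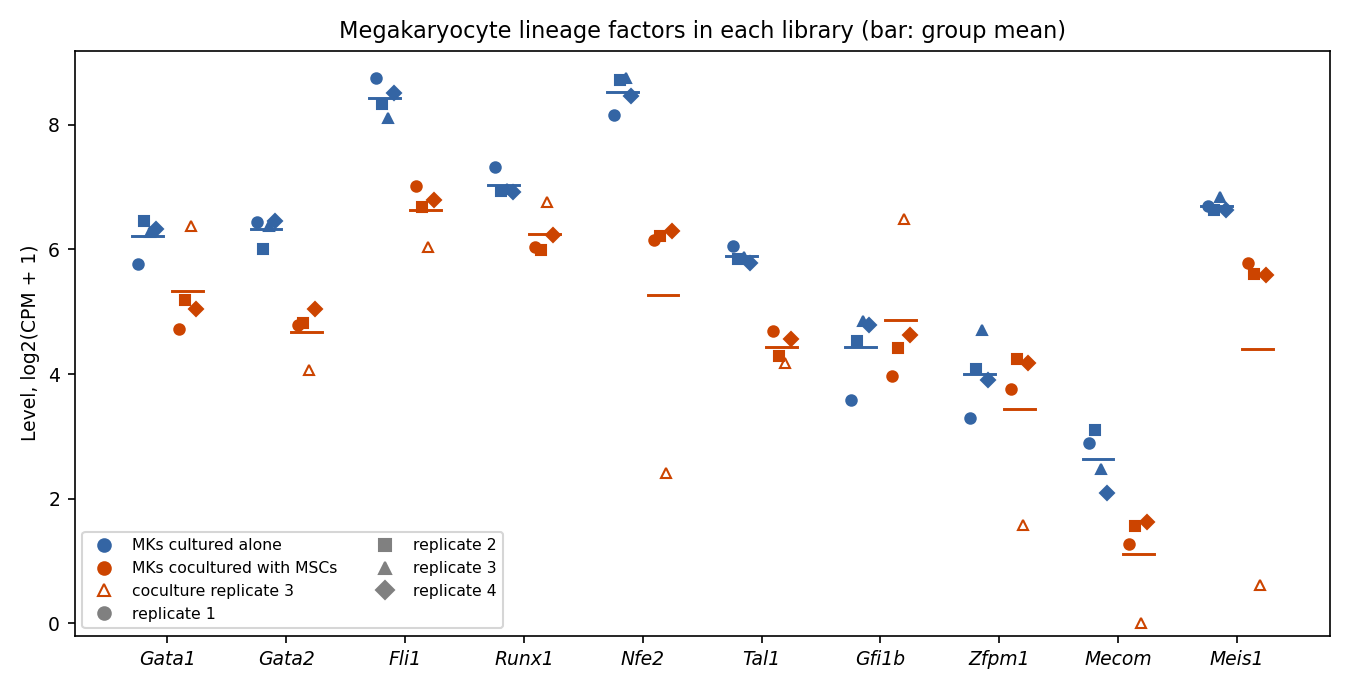
Level of each factor in each of the 8 libraries, as log2(CPM + 1) on the vertical axis, with MKs cultured alone in blue, cocultures in orange, replicate 3 of the cocultures as an open triangle, and a bar at the mean of each group. Nfe2 and Meis1 in the open triangle sit at 2.40 and 0.61, far below the other cocultures, while Gata1 and Gfi1b in that library sit above them.

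The upstream sequences of the factors were read first, because GATA, ETS and RUNX factors are known to regulate each other's genes. RefSeq (GRCm38.p6) promoter entries existed for 8 of the 10 factors, in 12 windows of 250 bases before an annotated start, and Fli1 and Nfe2 had none. A choice of 4 windows is shown for Tal1 and Gata2, which fell, for Gfi1b, the factor with a positive fold change, and for Gata1. Each is written 5′ to 3′ on the strand of its gene and ends at the base before the start. Capitals mark a match to GATA letters (AGATAA or TGATAA or AGATAG or TGATAG) or ETS letters (CCGGAAG or CAGGAAG), searched on both strands, so a match on the opposite strand appears as its reverse complement.
Tal1, chr4:115056176-115056425, plus strand: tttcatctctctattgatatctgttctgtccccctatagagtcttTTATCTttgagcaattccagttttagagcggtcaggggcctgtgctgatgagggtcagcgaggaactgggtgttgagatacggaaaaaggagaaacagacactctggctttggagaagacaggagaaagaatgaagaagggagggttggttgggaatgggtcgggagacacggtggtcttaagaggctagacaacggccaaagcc
Gata2, chr6:88193641-88193890, plus strand: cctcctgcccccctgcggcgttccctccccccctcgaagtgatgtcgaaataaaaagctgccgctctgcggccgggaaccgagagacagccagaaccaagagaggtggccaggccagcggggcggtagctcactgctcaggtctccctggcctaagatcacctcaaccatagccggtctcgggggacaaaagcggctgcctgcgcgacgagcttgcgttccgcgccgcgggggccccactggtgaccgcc
Gfi1b, chr2:28621983-28622232, minus strand: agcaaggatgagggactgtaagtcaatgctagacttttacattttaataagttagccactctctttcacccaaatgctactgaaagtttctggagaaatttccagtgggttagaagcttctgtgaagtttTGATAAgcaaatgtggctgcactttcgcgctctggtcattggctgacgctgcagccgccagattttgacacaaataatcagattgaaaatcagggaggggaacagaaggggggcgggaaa
Gata1, chrX:7967911-7968160, minus strand: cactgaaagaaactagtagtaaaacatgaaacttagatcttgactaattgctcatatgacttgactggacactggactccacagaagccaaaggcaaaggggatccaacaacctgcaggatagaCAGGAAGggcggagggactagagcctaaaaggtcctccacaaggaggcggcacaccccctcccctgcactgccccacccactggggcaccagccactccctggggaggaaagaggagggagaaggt
The Gfi1b window held GATA letters 120 bases before the start, and the Tal1 window held them 205 bases before it. The Gata1 window held ETS letters 126 bases before the start, and the Gata2 window held none of these letters. GATA letters occurred in 4 of the 12 windows of the factors (1 each for Gfi1b and Tal1 and 2 for Mecom), against 26.5% of 32851 mouse promoters of the same length. ETS letters occurred in 3 of 12 windows (Meis1, Runx1 and Gata1), against 17% of all promoters. RUNX letters (TGTGGT or TGCGGT) occurred in 1 of 12, that of Meis1, against 18.6%. These matches describe letters and do not show binding, and a window without them holds only other letters.

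Among the 10 factors, 4 were called lower in cocultures by edgeR's quasi-likelihood test with a change of 2-fold or more and a p, adjusted by Benjamini-Hochberg over all genes, of 0.05 or less, where 7.31% of all genes tested were called lower. None was called higher, against 13.2% of all genes, and none was higher at an unadjusted p under 0.05 or by DESeq2. The median log2 fold change of the 10 was -1.48, beside 0.034 for all genes tested, and 9 of the 10 values were negative. CPM values of the groups did not overlap for 7 factors, all lower in cocultures, a pattern seen in 21.1% of all genes (19.3% did not overlap in the other direction). Without replicate 3 of the cocultures, 7 factors were called lower (15.4% of all genes then tested) and none higher (20.6%), all 10 values were negative, and their median was -1.36.

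The GATA factors are described first. Gata2 (chr6:88193891-88207032, plus strand, GRCm38), the factor of progenitors and mast cells, had 85.9, 63.4, 82.1 and 86.9 CPM in replicates 1 to 4 of MKs cultured alone. The cocultures had 26.7, 27.1, 15.8 and 32.1 CPM. All 4 cocultures lay below the lowest library of MKs cultured alone, with the least in replicate 3. Gata2 fell 3.13-fold, with a log2 fold change of -1.65 ± 0.28 (SE, adjusted p = 0.00344, edgeR), and of -1.49 ± 0.19 without replicate 3 (adjusted p = 5.24e-06, edgeR).

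Gata1 (chrX:7959260-7978071, minus strand), required for MK maturation and red cell formation, had 53.6, 87.2, 76.6 and 79.7 CPM in MKs cultured alone. Its cocultures had 25.3, 35.4, 82.1 and 32.1 CPM. Replicate 3 reached the level of MKs cultured alone, and the other 3 cocultures lay below all of them. With all libraries the log2 fold change was -0.76 ± 0.39 (SE, adjusted p = 0.197, edgeR) and Gata1 was not called. Without replicate 3 it was -1.29 ± 0.21 (adjusted p = 6.82e-05, edgeR), which was called, so with TMM scaling that library decided the call. The call also depended on the scaling. Without replicate 3 and scaled to the mean log2 level of MK and platelet markers, Gata1 was at -0.82, under 2-fold and not called.

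Zfpm1 (chr8:122282141-122337251, plus strand), which encodes the GATA cofactor FOG-1, had 8.83, 15.9, 25.1 and 14.0 CPM in MKs cultured alone and 12.5, 17.8, 1.99 and 17.2 CPM in cocultures. Replicate 3, with 19 counts, lay far below the rest, and the other cocultures fell within the range of MKs cultured alone. The log2 fold change was -0.37 ± 0.66 (SE, adjusted p = 0.730, edgeR), and -0.052 ± 0.30 without replicate 3 (adjusted p = 0.897, edgeR), which left no difference detectable at this spread.

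Gfi1b (chr2:28609450-28621982, minus strand), a zinc finger repressor needed for MK and red cell maturation, had 11.04, 22.1, 27.9 and 26.5 CPM in MKs cultured alone. The cocultures had 14.6, 20.4, 88.3 and 23.8 CPM. Replicate 3, with 844 counts, was the highest of the 8 libraries, and the other 3 cocultures lay inside the range of MKs cultured alone. The positive log2 fold change of 0.75 ± 0.61 (SE, adjusted p = 0.419, edgeR) thus came from replicate 3 and became -0.20 ± 0.29 without it (adjusted p = 0.579, edgeR).

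Among the partners of GATA1 at platelet genes, Fli1 (chr9:32422204-32542861, minus strand), the ETS factor that drives MK surface glycoprotein genes, had 429.9, 320.7, 274.7 and 364.9 CPM in MKs cultured alone. The cocultures had 129.2, 101.3, 64.9 and 110.3 CPM. The lowest value of MKs cultured alone was above the highest coculture value. Fli1 fell 3.43-fold, with a log2 fold change of -1.78 ± 0.25 (SE, adjusted p = 0.00139, edgeR), and -1.63 ± 0.19 without replicate 3 (adjusted p = 2.28e-06, edgeR).

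Runx1 (chr16:92601466-92826149, minus strand), the core-binding factor required for normal platelet number, had 158.5, 121.0, 124.8 and 120.4 CPM in MKs cultured alone and 64.6, 62.3, 107.3 and 74.1 CPM in cocultures. All cocultures lay below all libraries of MKs cultured alone, although replicate 3 came near them. The log2 fold change of -0.77 ± 0.23 (SE) had an adjusted p of 0.0426 by edgeR and did not reach 2-fold, so Runx1 was not called. Without replicate 3 it was -0.99 ± 0.17 (adjusted p = 0.000154, edgeR), again under 2-fold.

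Tal1 (chr4:115056426-115071755, plus strand), a basic helix-loop-helix factor required for all blood formation, had 65.3, 56.4, 57.6 and 54.2 CPM in MKs cultured alone and 24.8, 18.5, 17.1 and 22.6 CPM in cocultures. The groups did not overlap, and replicate 3 was close to the other cocultures. Tal1 fell 2.81-fold, with a log2 fold change of -1.49 ± 0.25 (SE, adjusted p = 0.00332, edgeR), and -1.43 ± 0.19 without replicate 3 (adjusted p = 1.02e-05, edgeR).

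Nfe2 (chr15:103248212-103258403, minus strand), which encodes the p45 subunit of the factor behind proplatelet formation, had 283.4, 421.4, 428.5 and 352.9 CPM in MKs cultured alone. Its cocultures had 69.9, 73.3, 4.29 and 77.5 CPM. The groups did not overlap, and replicate 3, with 41 counts, was far below the other 3 cocultures, which lay within a narrow range. Nfe2 fell 6.61-fold, the most of the 10 factors, with a log2 fold change of -2.72 ± 0.70 (SE, adjusted p = 0.0234, edgeR). Without replicate 3 the log2 fold change was -2.36 ± 0.19 (adjusted p = 3.10e-08, edgeR). Nfe2 was no longer called when any of 4 single libraries was left out (replicates 2, 3 and 4 of MKs cultured alone and replicate 2 of the cocultures), with adjusted p between 0.0516 and 0.0575 by edgeR and log2 fold changes between -2.85 and -2.65.

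The calls of the stem and progenitor factors depended on replicate 3, and that of Meis1 also on the scaling. Meis1 (chr11:18879817-19018985, minus strand), a homeobox factor of stem cells and MK progenitors, had 102.6, 98.5, 113.7 and 98.4 CPM in MKs cultured alone and 54.2, 47.5, 0.523 and 47.0 CPM in cocultures. Replicate 3 held 5 counts of Meis1, and the remaining 3 cocultures were close to each other and below all MKs cultured alone. The log2 fold change was -1.47 ± 0.89 (SE, adjusted p = 0.271, edgeR) with all libraries, which was not called. Without replicate 3 it was -1.08 ± 0.17 (adjusted p = 4.56e-05, edgeR), which was. Meis1 was not called without replicate 3 when libraries were scaled to MK and platelet markers, by their sum (-0.81) or mean log2 level (-0.61).

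Mecom (chr3:29951296-30548008, minus strand), a zinc finger factor of stem cells, was the least abundant. It had 6.40, 7.63, 4.55 and 3.25 CPM in MKs cultured alone and 1.42, 1.95, 0 and 2.08 CPM in cocultures. Replicate 3 had no count of Mecom, and 12 to 15 counts stood behind each of the other coculture values. The log2 fold change was -2.0 ± 0.97 (SE, adjusted p = 0.174, edgeR), and -1.62 ± 0.43 without replicate 3 (adjusted p = 0.00458, edgeR), where it was called.

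**Figure D2:**
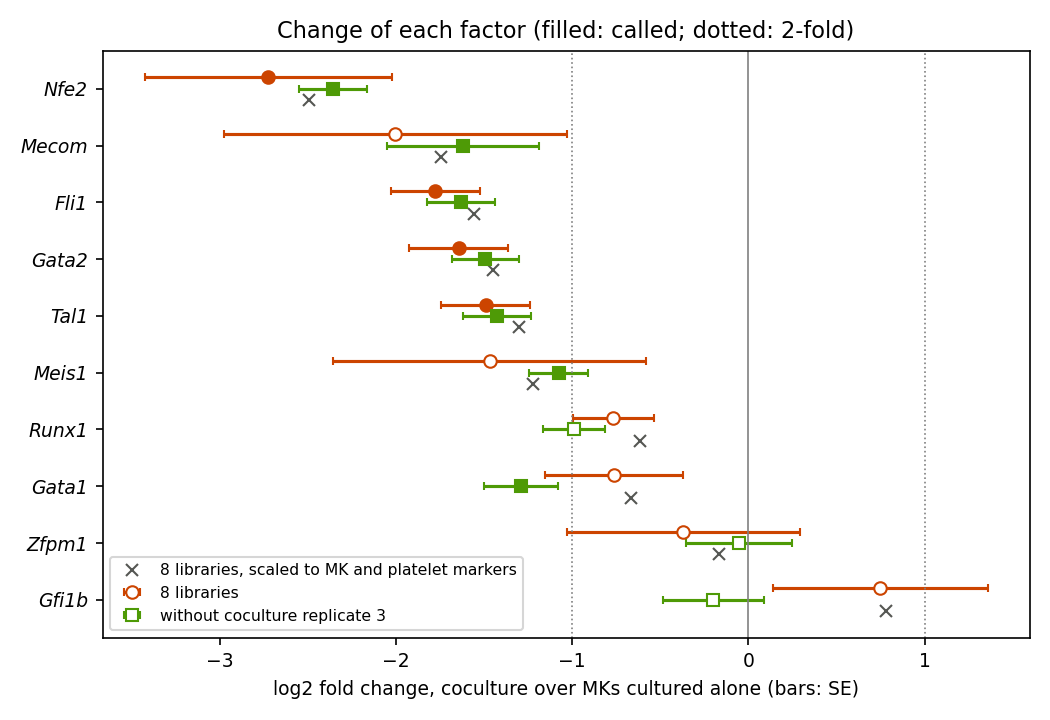
log2 fold change of each factor, coculture over MKs cultured alone, on the horizontal axis, with all 8 libraries (circles), without replicate 3 of the cocultures (squares) and scaled to the summed MK and platelet markers (crosses). Bars are SE, filled symbols passed the criteria of edgeR and dotted lines mark 2-fold. Fli1, Gata2, Tal1 and Nfe2 are filled with and without replicate 3, and Gfi1b is at 0.75 with it and at -0.20 without it.

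Ratios of factors within a library do not depend on how libraries are scaled, and 4 were compared with two-sided exact permutation tests. In these, 4 against 4 libraries cannot give a p below 0.0286, which for a single ratio stays above the threshold after adjustment over the 4 ratios. The log2 ratio of Gata1 to Gata2 averaged -0.11 ± 0.46 for MKs cultured alone and 0.67 ± 1.15 for cocultures (SD, n = 4 each). Replicate 3 of the cocultures had 2.37, and the other 3 had -0.079, 0.39 and 0, inside the range of MKs cultured alone from -0.68 to 0.46. The difference of 0.78 (exact permutation p = 0.229, 0.457 after Benjamini-Hochberg adjustment over the 4 ratios) became 0.21 without replicate 3 (exact permutation p = 0.4). The 2 GATA factors were within 2-fold of each other in 7 of the 8 libraries, and a shift between them was not detectable at this spread.

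The log2 ratio of Zfpm1 to Gata1, the cofactor relative to its partner, was -2.59, -2.45, -1.61 and -2.5 in MKs cultured alone. The cocultures had -1.01, -0.99, -5.33 and -0.90. Outside replicate 3 the cocultures lay above all MKs cultured alone, at -0.97 ± 0.060 (SD, n = 3) against -2.29 ± 0.46 (SD, n = 4), whereas replicate 3 lay below every other library. The difference was 0.23 with all libraries (exact permutation p = 0.914). It was 1.32 without replicate 3 (exact permutation p = 0.0571, 0.229 after adjustment over the 4 ratios). Neither passed the threshold of 0.05. Without replicate 3 the smallest p possible was again 0.0286, which for a single ratio stays above 0.05 after adjustment. The test could therefore not decide whether this ratio differed in the remaining libraries.

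The log2 ratio of Fli1 to Gata1 averaged 2.23 ± 0.54 for MKs cultured alone and 1.33 ± 1.16 for cocultures (SD, n = 4 each), a difference of -0.90 (exact permutation p = 0.229) that became -0.35 without replicate 3 (exact permutation p = 0.457). For Runx1 to Gata1 the values were 0.83 ± 0.49 and 0.94 ± 0.43 (SD, n = 4 each), with a difference of 0.11 (exact permutation p = 0.8) and of 0.29 without replicate 3 (exact permutation p = 0.371). Fli1 stayed above Gata1 in 7 of the 8 libraries, the exception being replicate 3 of the cocultures at -0.34.

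**Figure D3:**
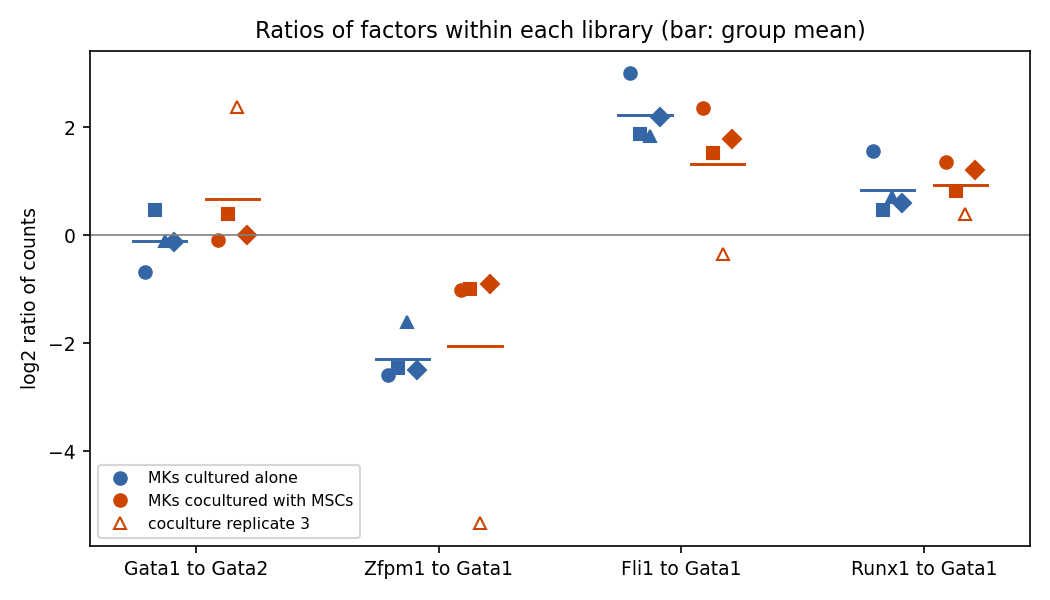
log2 ratio of the counts of 2 factors in each library on the vertical axis, with MKs cultured alone in blue, cocultures in orange, replicate 3 of the cocultures as an open triangle and a bar at the mean of each group. For Zfpm1 to Gata1, 3 cocultures sit between -1.01 and -0.90, above the MKs cultured alone, and the open triangle sits at -5.33.

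Levels were compared between factors as CPM per kilobase of merged exons (GENCODE vM21). In MKs cultured alone, Nfe2 was highest at 124 ± 22.7 CPM per kilobase (SD, n = 4), followed by Fli1 at 99.7 ± 19.0 and Gata1 at 30.5 ± 5.94, and the ranges of Nfe2 and Fli1 overlapped. Gata2 (14.7 ± 2.03), Tal1 (13.3 ± 1.11), Gfi1b (12.0 ± 4.18) and Runx1 (10.9 ± 1.52) followed, and each neighbour in that order overlapped with the next. Meis1 had 9.81 ± 0.68, Zfpm1 4.55 ± 1.93 and Mecom 0.439 ± 0.156 CPM per kilobase. In cocultures without replicate 3 the order began with Fli1 at 32.6 ± 4.08 (SD, n = 3), Nfe2 at 24.6 ± 1.29, Gata1 at 12.7 ± 2.12 and Gfi1b at 10.7 ± 2.54, and Mecom was again last at 0.146 ± 0.028. In these 3 cocultures all values of Fli1 lay above those of Nfe2, while the ranges of Gata1 and Gfi1b overlapped. With replicate 3, the coculture means were 29.1 ± 7.74 for Fli1, 20.1 ± 18.9 for Gfi1b, 18.8 ± 11.6 for Nfe2 and 17.9 ± 10.6 for Gata1 (SD, n = 4 each). The order depended on the length used. With the median length of coding transcripts, Runx1 stood at 66.1 CPM per kilobase in MKs cultured alone, after Gata1 at 110 and before Gata2 at 25.4.

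For each factor, the tested gene with the most similar profile over the 8 libraries was found by the root-mean-square difference of centered log2(CPM + 1). These were Rhof for Gata1 (0.121), Mllt10 for Gata2 (0.140), Cyb5r4 for Fli1 (0.100), Mcu for Runx1 (0.0920), Cd79b for Nfe2 (0.0955), Fbxl5 for Tal1 (0.0875), Gramd1a for Gfi1b (0.122), Vps52 for Zfpm1 (0.171), Shld1 for Mecom (0.209) and Rbm43 for Meis1 (0.127). Cd79b encodes a subunit of the B cell receptor and Mcu the pore of the mitochondrial calcium uniporter. None of the 10 nearest genes was itself one of the factors. Without replicate 3 another gene was nearest to each factor, for example Cdk19 for Fli1 (0.0659) and Swap70 for Runx1 (0.0603), and the genes above ranked between 2 and 40 among 11680.

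Protein partners of the factors were described next. Of 13 partners, all tested, 1 was called higher and 1 lower, with a median log2 fold change of -0.26. Lmo2, which bridges TAL1 to the GATA factors, had 278.1, 301.6, 280.0 and 260.3 CPM in MKs cultured alone and 132.8, 123.9, 136.4 and 109.1 CPM in cocultures. Replicate 3 was close to the other cocultures. Lmo2 fell by 1.16 ± 0.16 on the log2 scale (SE, adjusted p = 0.00109, edgeR), with a log2 fold change of -1.22 without replicate 3. Maff, a small MAF protein that can pair with NFE2 p45, was called higher with a log2 fold change of 3.75 ± 0.72 (SE, adjusted p = 0.00584, edgeR), from 1 or 2 counts in each library of MKs cultured alone to a mean of 3.64 CPM in cocultures, and with 3.37 without replicate 3. Other partners, such as Ldb1 (-0.26), Mafg (-0.54), Cbfb (-0.99) and Kdm1a (-0.77), were not called. Without replicate 3, 1 partner was called higher and 2, Lmo2 and Lyl1, were called lower.

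Of 12 other factors of the MK network, 4 were called lower and 1 higher, with a median of -0.51. Hhex, a homeobox factor of early blood cells, fell by 2.71 ± 0.28 on the log2 scale (SE, adjusted p = 0.000222, edgeR), from 86.6 ± 12.9 to 13.2 ± 3.20 CPM (SD, n = 4 each), with a log2 fold change of -2.58 without replicate 3. Ets1, an ETS relative of Fli1, fell by 1.95 ± 0.29 (SE, adjusted p = 0.00181, edgeR), with a log2 fold change of -1.74 without replicate 3. Stat5b and Etv6, a thrombopoietin signal transducer and an ETS repressor, had log2 fold changes of -1.26 and -1.15 (-1.59 and -1.09 without replicate 3) and were called both ways. Nfib was called higher at 6.55 ± 1.08 (SE, adjusted p = 0.00294, edgeR), from at most 4 counts a library in MKs cultured alone to 36.0, 35.6, 3.98 and 23.9 CPM in cocultures, with the least in replicate 3, and at 6.94 without it. Without replicate 3, 6 of these factors were called lower and 2 higher.

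Genes reported as targets of the factors in MKs encode platelet receptors, granule proteins and enzymes. Of 18 targets, 1 was called lower, 1 higher and 16 were not called, with a median log2 fold change of -0.38. Platelet factor 4 (Pf4), an alpha granule chemokine, had 1116, 752.6, 622.5 and 874.1 CPM in MKs cultured alone and 902.3, 795.5, 1601 and 983.0 CPM in cocultures, and the groups overlapped. Its log2 fold change was 0.35, that of the chemokine gene Ppbp was 0.35, that of Itga2b (CD41) was -0.39 and that of Treml1 was 0.048, none of them called. Tbxas1, thromboxane synthase, fell by 1.06 ± 0.26 on the log2 scale (SE, adjusted p = 0.0196, edgeR). It was not called without replicate 3, where it was at -0.90 and under 2-fold, or with libraries scaled to the summed MK and platelet markers, where it was at -0.86 (adjusted p = 0.0875, edgeR). Myl9, a myosin light chain that contractile stromal cells also make, was called higher at 6.24 ± 0.46 (SE, adjusted p = 4.20e-05, edgeR), with 1.86 to 5.32 CPM in MKs cultured alone and 168.5 to 376.5 CPM in cocultures, and was at 5.94 without replicate 3. Without that library 4 other targets were called lower, Gp1ba (-1.16), Gp6 (-1.20), Alox12 (-1.65, against 0.69 with all libraries) and Prkcq (-1.20), and Selp (1.22) was called higher beside Myl9, with a median of -0.63.

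Close relatives of the factors moved in both directions. Of 16 paralogs, 14 were in the table and 10 were tested, and 2 were called higher and 2 lower, with a median of -0.73. Gfi1, the neutrophil and lymphoid relative of Gfi1b, had 18.5, 23.6, 23.5 and 16.3 CPM in MKs cultured alone and 1.90, 1.17, 0.628 and 1.56 CPM in cocultures, a log2 fold change of -3.95 ± 0.54 (SE, adjusted p = 0.000975, edgeR) that was -3.72 without replicate 3. Gfi1 therefore fell while Gfi1b was not called, although the difference between the relatives was not tested. Runx3 fell by 1.99 ± 0.45 (SE, adjusted p = 0.0138, edgeR), with a log2 fold change of -1.71 without replicate 3. Meis3 and Nfe2l1, relatives of Meis1 and Nfe2, were called higher at 4.98 ± 0.76 and 1.87 ± 0.40 (SE, adjusted p = 0.00186 and 0.00999, edgeR), Meis3 from at most 5 counts a library in MKs cultured alone to between 9.48 and 18.7 CPM in cocultures. Without replicate 3 their values were 4.97 and 1.37, both called. Without replicate 3, 5 paralogs were called higher and 4 lower. Erg and Lyl1 stood both here and among the network factors or partners.

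Of 13 factors of other blood lineages, 12 were tested, and edgeR called 5 lower and none higher (9 lower and none higher at an unadjusted p under 0.05, and 9 lower and none higher by DESeq2), with a median log2 fold change of -2.29. The 5 called were the B lymphoid factor Ikzf3 and the progenitor factor Myb, with log2 fold changes of -3.48 and -3.43, Cebpe (-3.13), Ikzf1 (-2.80) and Irf8 (-1.42), and all 5 were also called without replicate 3 (-3.13, -3.08, -2.83, -2.66 and -1.54). Among those not called were Spi1 (-0.73, and called lower at -1.50 without replicate 3), Ebf1 (-0.35) and Mitf (0.087). Myb went from 170 ± 14.4 to 15.7 ± 9.44 CPM (SD, n = 4 each). The median of these factors was below that of the MK factors, and the difference between the lists was not tested. Without replicate 3, 9 of the 12 were called lower, with a median of -1.92.

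**Figure D4:**
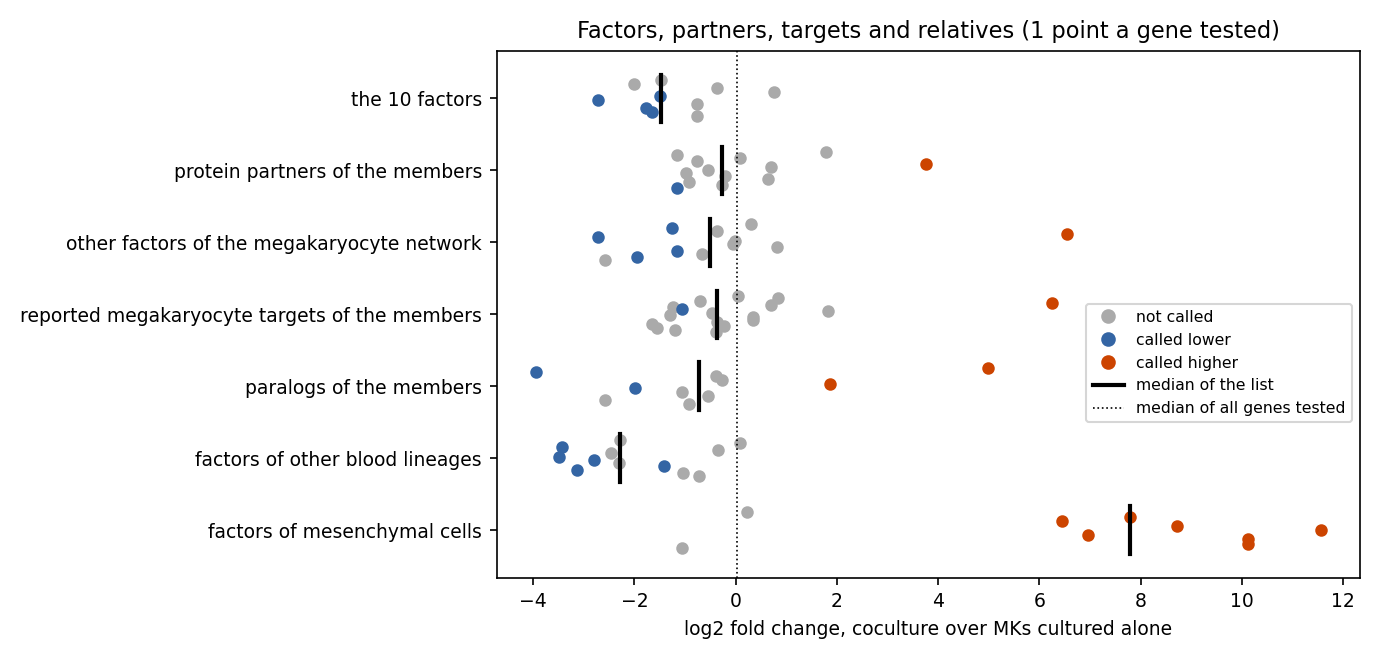
log2 fold change of each tested gene, coculture over MKs cultured alone, on the horizontal axis, with 1 point a gene in each list, blue for called lower, orange for called higher and grey for not called. The black line is the median of a list and the dotted line the median of all genes tested, 0.034. The 10 factors have a median of -1.48, their reported targets -0.38, factors of other blood lineages -2.29 and factors of mesenchymal cells 7.79.

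Marker genes of other marrow cells moved in both directions. Bulk counts cannot tell fewer cells of a type apart from less RNA per cell. MK and platelet markers (15 genes) summed to between 2103 and 2565 CPM in MKs cultured alone and between 1807 and 2454 CPM in cocultures, and the groups overlapped. Of these markers, 1 was called lower (Mmrn1, -1.59), or 3 without replicate 3, and none higher either way (none at an unadjusted p under 0.05 or by DESeq2). Every list of markers had genes with counts in the libraries labelled MKs. The 9 neutrophil markers summed to between 78798 and 81461 CPM in MKs cultured alone, far above the MK markers, and to between 4222 and 9661 CPM in cocultures, with 9 of 9 called lower with and without replicate 3. MSC markers summed to between 231 and 263 CPM in MKs cultured alone and between 1265 and 4264 CPM in cocultures, with the least in replicate 3. Of these, 7 of 10 tested were called higher and 1, Nt5e, called lower (8 and 1 of 11 without replicate 3). Most of the sum in MKs cultured alone came from Vcam1, Nt5e, Itgav and Eng, with means of 93.4, 76.7, 40.5 and 20.3 CPM. Col1a1, Col3a1, Sparc and Cxcl12 averaged at most 0.548 CPM there and between 59.3 and 963 CPM in cocultures. Their log2 fold changes without replicate 3 ran from 8.98 to 12.7. Macrophage markers summed to between 257 and 322 CPM and between 1089 and 1358 CPM, with 8 of 10 tested called higher (9 of 11 without replicate 3), and Marco alone among all markers had no count in any library of MKs cultured alone.

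Several factors are shared with cells whose markers were lower in cocultures. Gata2 and Tal1 are also active in mast cells and basophils, whose 7 markers summed to between 1367 and 1591 CPM in MKs cultured alone and between 134 and 295 CPM in cocultures, with 5 called lower (6 without replicate 3). The mast cell protease gene Cpa3 went from 357.5 to 472.5 CPM in MKs cultured alone to 10.9 to 39.3 CPM in cocultures. Mcpt8, from the same list, overlapped between the groups, with 82.3 to 164.1 CPM in MKs cultured alone and 47.3 to 127.4 CPM in cocultures. Its log2 fold change was -0.33 (adjusted p = 0.525, edgeR) and -0.14 without replicate 3, and it was not called either way. Eosinophils also use Gata1 and Gata2, and 7 of their 7 markers were called lower with and without replicate 3, from sums between 1092 and 1815 CPM to sums between 13.3 and 68.0 CPM. Stem and progenitor markers summed to between 712 and 811 CPM and between 236 and 284 CPM, with 5 of 9 called lower and 1, Procr, called higher, as many as without replicate 3. Cd34 had 160.9 to 202.6 CPM in MKs cultured alone and at most 28 CPM in cocultures, and Meis1 and Mecom are active in the same cells.

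Erythroid cells, which share Gata1, Tal1, Zfpm1 and Gfi1b with MKs, gave sums of 29.4 to 41.3 CPM in MKs cultured alone and of 18.4 to 20.8 CPM in cocultures other than replicate 3, which had 63.9 CPM. Replicate 3 was also the library with the highest Gfi1b level. With all libraries edgeR called none of 4 erythroid markers tested (1 was lower at an unadjusted p under 0.05, and DESeq2 called 1 lower), and without replicate 3 it called 3 of 5 lower. Endothelial cells share Fli1 and Gata2, and their markers summed to between 129 and 163 CPM in MKs cultured alone. In cocultures they summed to 196 CPM in replicate 3 and to between 56.8 and 87.0 CPM in the other 3, below all MKs cultured alone, and 1 of 6 was called lower (4 of 6 without replicate 3), with the defining markers Cdh5 and Emcn at most 2.62 and 1.55 CPM in any library. B cell markers, with 4 of 9 called lower (6 without replicate 3), summed to between 886 and 946 CPM and between 91.1 and 236 CPM. The part of these cells in the levels of the factors was not tested.

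**Figure D5:**
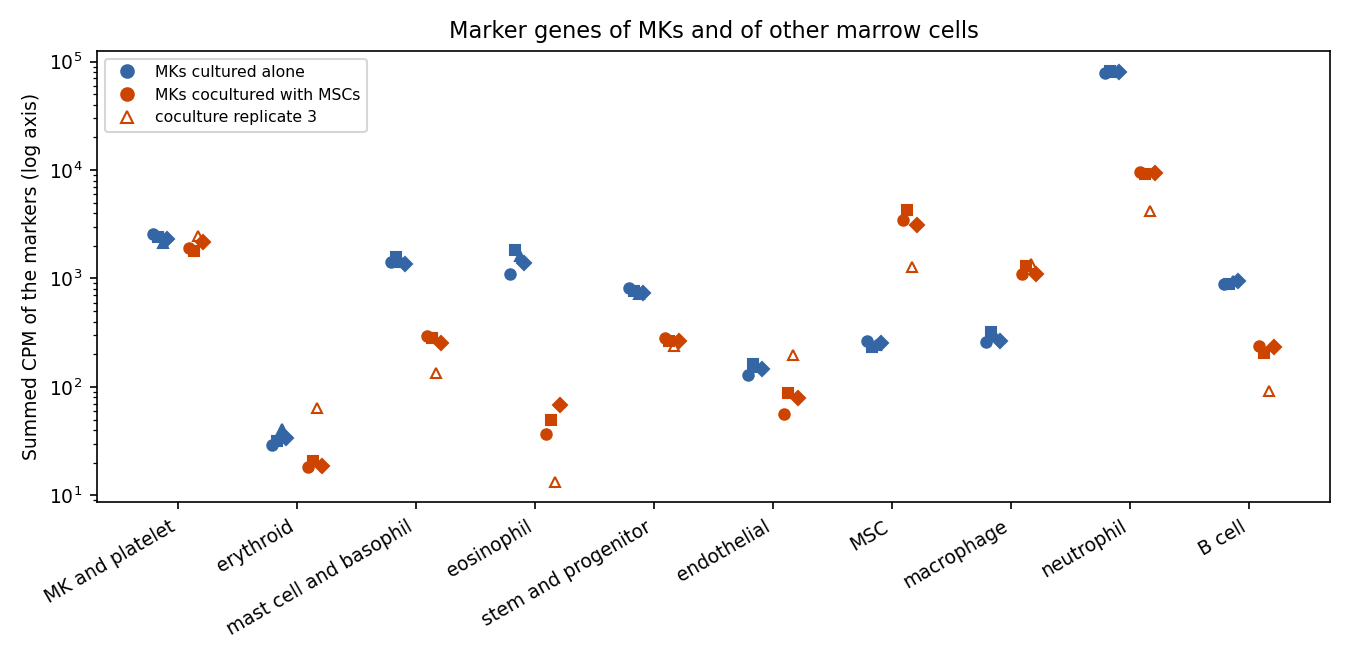
Summed CPM of each list of cell type markers in each library on a logarithmic vertical axis, with MKs cultured alone in blue, cocultures in orange and replicate 3 of the cocultures as an open triangle. MK and platelet markers overlap between groups at 1807 to 2565 CPM, whereas neutrophil, mast cell, eosinophil, progenitor and B cell markers are lower in every coculture and MSC and macrophage markers higher.

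The factors were also expressed relative to the MK and platelet markers. With libraries scaled to the summed counts of these markers, the median over all genes moved to a log2 fold change of 0.217 and that of the 10 factors to -1.26, and Fli1 (-1.56), Gata2 (-1.45), Tal1 (-1.30) and Nfe2 (-2.49) remained called lower. Pf4 held between 29.6% and 43.5% of the marker counts in MKs cultured alone and between 44.0% and 65.2% in cocultures, so a scaling in which each marker counts equally, the mean of log2(CPM + 1), was added. This moved the median of all genes to 0.629 and that of the factors to -0.96. Fli1 (-1.23), Gata2 (-1.11) and Nfe2 (-2.25) remained called lower, Tal1 was at -0.92 with an adjusted p of 0.0486 by edgeR and under 2-fold, and Gata1 and Runx1 were at -0.028 and -0.11. Over all 20 alternatives run for single factors, Fli1 was called lower in 20, Gata2 in 19, Tal1 in 18, Nfe2 in 14, Mecom in 3, Gata1 in 2 and Meis1 in 1. Runx1, Gfi1b and Zfpm1 were called in none of the 20, and no factor was called higher in any.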

How the data were processed

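RNA-Seq was performed on 4 libraries of MKs cultured alone and 4 of MKs cocultured with MSCs, grouped by the labels. The authors extracted RNA, made low-input SMART-Seq HT libraries, filtered paired reads with fastp, and ran kallisto against an mm10 transcriptome index. What the authors deposited were whole-number counts per gene without normalization. How transcripts were summed, and whether strand was used, is not given in the sources used here, so reads of overlapping and antisense genes and of close copies cannot be told apart. The batch in the authors' DESeq2 design is not named in the sources used here, and the labels give none.

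All values were computed from these counts with edgeR 4.0.16 under R 4.3.3 (TMM scaling, filterByExpr, the robust quasi-likelihood F test, no covariate), with Benjamini-Hochberg adjustment over the 11722 genes tested. A gene was called when it changed 2-fold or more with an adjusted p of 0.05 or less and averaged 1 CPM or more in either group, after the cutoffs of the study with CPM in place of TPM. Ratios used log2 of counts + 0.5 and two-sided exact permutation tests. The script was tested on simulated data. DESeq2 1.42.0, other scalings and filters, the replicate number as a block and each library left out were the alternatives, and 4 further ones that combine or change the scaling to MK and platelet markers, and the transcript length, were chosen after seeing the data. The factors and gene lists were chosen with earlier results of these data known. All 10 factors were named. From each list the 2 called genes that rose most and the 2 that fell most were named if 1 group averaged 5 CPM or more, plus genes that complete a count of 5 or fewer, and any other gene was chosen after its values were seen. Positions and lengths were read from GENCODE vM21 (GRCm38, the same assembly as mm10). Reads carry no molecular identifiers, and libraries held 4939874 to 12523616 counts. Figures were drawn with Python 3.11 and matplotlib 3.10.9.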

Additional observations from a re-analysis of the deposited data

Results flagged for a closer look

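Dixon's criterion was applied to each factor and each ratio within the 4 libraries of a group. In 5 of 28 such sets 1 library lay apart, while about 1 in 20 (1.4 here) would by chance. In 3 of the 5 it was coculture replicate 3. In that library the log2(CPM + 1) of Nfe2 was 2.40, that of Meis1 was 0.61 and the log2 ratio of Zfpm1 to Gata1 was -5.33, each below the other cocultures. In MKs cultured alone, the log2(CPM + 1) of Runx1 in replicate 1 was 7.32, above the others, and the log2 ratio of Zfpm1 to Gata1 in replicate 3 was -1.61, above the others. The cause of these 5 values was not tested.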

How the results depend on the processing

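The number of factors called lower, 4 with all libraries, was 2 with libraries scaled to the summed MK and platelet markers and with the replicate block, 3 with the replicate block alone, where Nfe2 (-3.07, adjusted p = 0.0843, edgeR) was lost, and between 3 and 7 when single libraries were left out, the 7 being without replicate 3 of the cocultures. It was 3 with libraries scaled to the mean log2 level of the markers, 5 without a minimum fold change, where Runx1 was added, and 4 or 6 under the other alternatives. No factor was called higher under any. Zfpm1 changed sign to 0.19 with the summed markers and without replicate 3 of the cocultures, to 0.12 with the mean log2 level of the markers, and to 0.42 with that level and without replicate 3. Gfi1b changed sign to -0.20 without replicate 3 of the cocultures, in a range of -0.20 to 1.02 with a library left out. The cause was not tested. Of the other values of single factors, 181 kept their direction and their side of the criteria, 9 no longer passed and 6 newly passed. No ratio passed under the alternatives run with all 8 libraries. With a library left out, Zfpm1 to Gata1 ran from -0.16 to 1.32, negative without coculture replicate 1, 2 or 4, and Runx1 to Gata1 from -0.032 to 0.35, negative without coculture replicate 1 or replicate 2 of MKs cultured alone, and the spread of the first is set by coculture replicate 3. Among the factors and targets of the other lists, the replicate block also ended the calls of Maff (adjusted p = 0.0574, edgeR), Tbxas1 (0.0578), Twist2 (0.0729) and Ikzf3 (0.108). Numbers 1 to 4 of the replicates were shared by the groups, but the deviations of libraries with the same number correlated across genes at 0.369, 0.0198, 0.150 and 0.0280, and 2 of the 4 correlated best with their own number, so no pairing was assumed. Counts of Mecom (0 to 15 in cocultures) limit its precision.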

Other observations

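Factors of mesenchymal cells, which shape bone, cartilage and connective tissue, were the list with the highest median log2 fold change among the 6 lists of related factors and targets. Of 12 factors, 11 were in the table and 9 tested, and 7 were called higher by edgeR and none lower (1 was lower at an unadjusted p under 0.05, and DESeq2 called 5 higher and 1 lower), with a median of 7.79. Foxc1, a forkhead factor of marrow stromal cells, had no count in any library of MKs cultured alone and 48.6, 35.6, 70.5 and 36.3 CPM in cocultures, at least 72.1-fold higher against the floor of 3 counts in the shallowest of those libraries (at least 60.6-fold without replicate 3 of the cocultures). Twist2, also without a count in MKs cultured alone, had 4.55, 3.91, 57.3 and 5.03 CPM. Replicate 3 carried its mean, and the fold was at least 26.7 with that library and at least 6.79 without it. Prrx1, a limb and mesenchyme factor, had at most 3 counts in any library of MKs cultured alone and 183.4, 145.9, 252.8 and 132.2 CPM in cocultures, and Snai2 had at most 4 counts and 124.0, 95.5, 69.9 and 115.9 CPM, so both were called higher from levels near the floor. The osteoblast factor Runx2, a relative of Runx1, was at -1.06 and was not called. Without replicate 3 of the cocultures, 9 of 11 tested were called higher, with a median of 6.81. The summed MSC markers were also higher in every coculture, although 1 of them, Nt5e, was called lower (-3.66), and their part in these levels was not tested.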
